A study of Mus musculus with 18 samples.

Results

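Matrix proteases cut the proteins of the extracellular matrix, and tissue inhibitors of metalloproteinases (TIMPs) block many of them. The 10 genes described here are 7 proteases, Adamts4, Mmp8, Mmp9, Mmp12, Mmp13, Mmp14 and Mmp19, and 3 inhibitors, Timp1, Timp2 and Timp3. They were chosen by gene symbol from 22485 measured genes, and all 10 were on the array. Mmp9 was read by 10 probes, Mmp12 and Timp2 by 2 each, and the other members by 1.

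The cells were macrophages grown from the bone marrow of mice 8 to 10 weeks old with 10 ng/ml M-CSF for 7 days. Wild type (Nrf2+/+) macrophages had albumin for 4 h (3 arrays), LPS for 4 h (3 arrays), or 200 µM heme-albumin for 4 h and then LPS for 4 h (3 arrays). Nrf2-/- macrophages, which lack the transcription factor that drives the antioxidant response, had LPS (4 arrays) or heme-albumin and then LPS (5 arrays), and no knockout group went without LPS. The protocol gives 10 ng/ml for LPS, the bacterial lipopolysaccharide that sets off the inflammatory response, and no albumin is named for the arrays with LPS alone. If these had none, the comparisons called heme below also hold the albumin carrier and the 4 h before LPS. LPS against albumin would then also hold the absence of albumin. By these labels such parts cannot be told apart from heme or LPS. Each sample was labelled with Cy5 and set against untreated macrophages labelled with Cy3, so a value is a log2 ratio to untreated cells and not a level. Levels of different genes therefore cannot be ordered. The design text calls the replicates independent and biological, and the labels do not tie a replicate to an animal.

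In this family, the zinc proteases named MMP are mostly secreted as inactive proenzymes. Collagenases (Mmp8, Mmp13) open fibrillar collagen, the gelatinase Mmp9 degrades denatured and basement membrane collagen, and the macrophage elastase Mmp12 degrades elastin. Mmp14 sits in the cell membrane and can activate other members, Mmp19 acts on basement membrane proteins, and Adamts4 is an aggrecanase that cuts the proteoglycans aggrecan and versican. Timp1 and Timp2 are soluble inhibitors, Timp3 is bound to the matrix and also inhibits ADAMTS proteases, and Timp2 takes part in the activation of pro-MMP2 by Mmp14.

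The targeted gene was listed at exactly 0 on all 9 Nrf2-/- arrays (Nfe2l2, which encodes Nrf2), and the 6 LPS-treated wild type arrays lay between -0.59 and 1.0. Of the 3 albumin arrays 2 were also listed at exactly 0 for it, and the position of its probe in the gene is not known here. As a log2 ratio to untreated cells, a value of 0 does not by itself show lost expression. A share of 17.9% to 48.8% of all array features was listed at exactly 0, depending on the array. Values of exactly 0 are named as such below. Of the 8 macrophage markers Adgre1 and Cd14 rose under LPS (by 0.97 and 2.50). With heme and LPS against LPS in wild type Fcgr1 fell by 5.38 and Mertk by 3.08. The other markers were not called there and lay from -0.40 (Cd68) to 0.55 (Csf1r), so the list did not fall as a whole. The Mertk call was lost without array a or c of heme or a of LPS. Fcgr1 fell by 2.44 with heme in the knockout, and under heme and LPS was 3.09 higher there than in wild type. Both calls were lost without some single arrays. Array means of the 8 ran from -0.34 to -0.33 with albumin, 0.42 to 0.54 with LPS and -0.89 to -0.49 with heme and LPS in wild type. In the knockout they were 0.11 to 0.62 with LPS and -0.42 to 0.34 with heme and LPS. The mean log2 ratio of the 12 neutrophil markers was -0.17 to -0.04 on the albumin arrays, 0.14 to 0.64 under LPS and 0.39 to 1.0 under heme and LPS in wild type, and 0.10 to 0.71 in the knockout. Since the values are ratios, they do not show whether a marker is expressed. Fewer cells of a type and less RNA per cell cannot be told apart in such samples.

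Under LPS 3 proteases rose in wild type macrophages, and none of the inhibitors passed the test. Over all genes 28.6% were called in this comparison. The aggrecanase Adamts4 rose by 8.04 ± 0.58 on the log2 scale (SE, n = 3 against 3), the collagenase Mmp13 by 6.47 ± 0.64 and the membrane protease Mmp14 by 3.70 ± 1.13. Each SE of a difference here and below rests on a spread shared over all 5 groups and 18 arrays, not on the compared groups alone. Heme before LPS left Adamts4 and Mmp13 lower by 2.96 ± 0.58 and 2.60 ± 0.64 and Mmp19 higher by 1.68 ± 0.45 than LPS alone, where 14.7% of all genes were called. In the knockout 0 members passed the test for heme, against 6.77% of all genes. The direct test of the difference between the heme effects of the genotypes also called 0 members, against 0.947% of all genes. Under heme and LPS Adamts4 was higher in the knockout than in wild type by 2.55 ± 0.52, and it was the single call among the members in a comparison that called 5.29% of all genes.

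**Figure D1:**
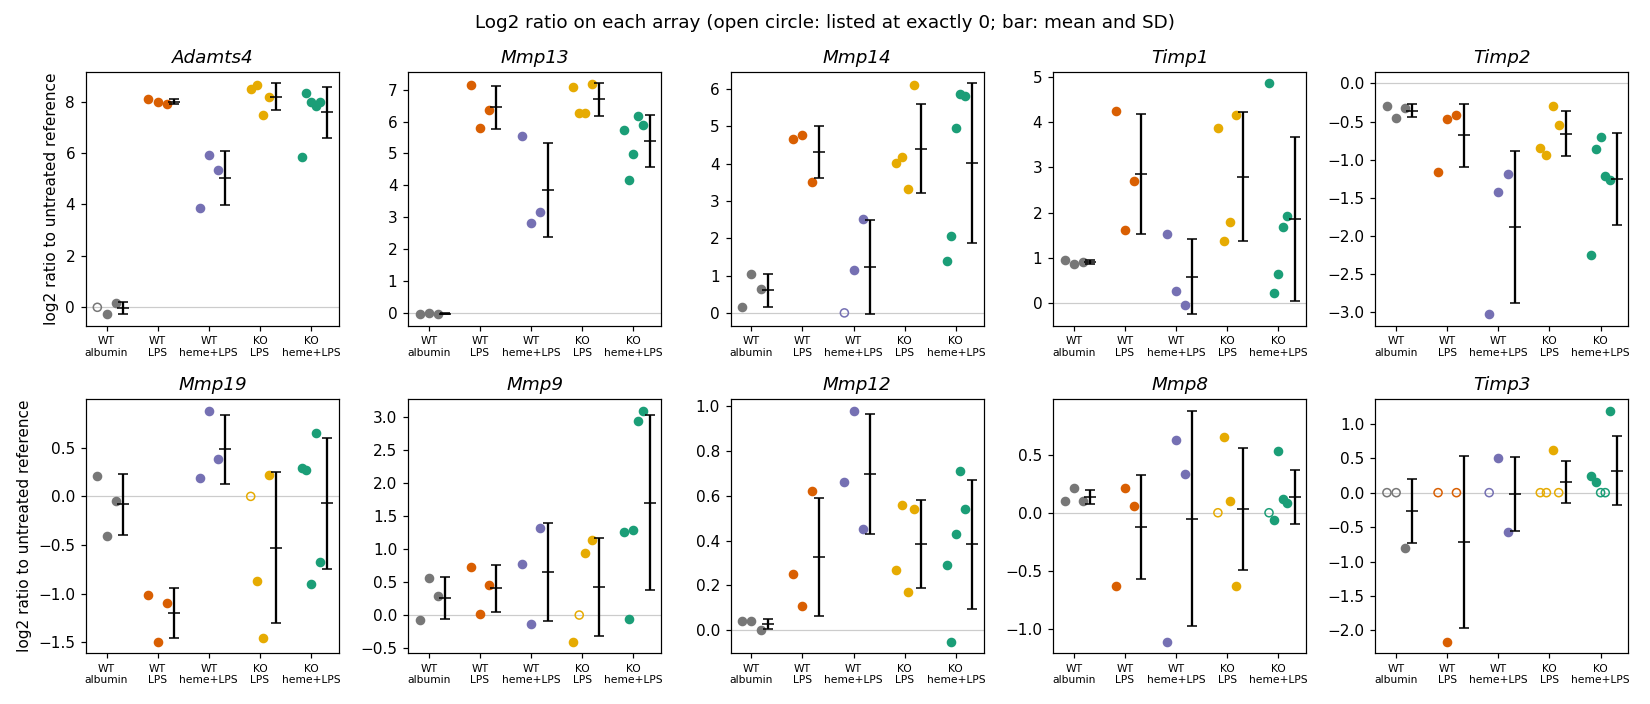
Log2 ratio to the untreated reference (y axis, own scale in each panel) for the 10 genes in the 5 groups (WT, Nrf2+/+; KO, Nrf2-/-). Points are arrays, open circles are values listed at exactly 0, and black bars are the mean and SD. Adamts4 and Mmp13 stand near 0 with albumin and at 5.81 or higher on every array with LPS alone.

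Adamts4 was at 0.00 (listed at exactly 0), -0.27 and 0.17 on the albumin arrays of wild type. With LPS it was at 8.12, 7.97 and 7.91. With heme and LPS it was at 3.88, 5.91 and 5.33, below every LPS array and above every albumin array. The rise under LPS corresponded to 262-fold (95% interval 6.79 to 9.28 log2 units, adjusted p = 2.53e-07), and heme and LPS lay 33.7-fold above albumin (5.07 ± 0.58, adjusted p = 2.02e-05). After heme the level relative to untreated cells was 12.8% of that with LPS alone (-2.96 ± 0.58, adjusted p = 0.0026). When only these wild type groups set the spread, that adjusted p was 0.0552.

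In Nrf2-/- cells Adamts4 was at 8.50, 8.63, 7.48 and 8.16 with LPS. Heme before LPS gave 5.84, 8.33, 8.00, 7.81 and 7.97. Array a of the heme group stood below the others, which overlapped the LPS arrays. The heme effect in the knockout was -0.60 ± 0.48 (95% interval -1.62 to 0.42, adjusted p = 0.639). The difference between the heme effects, knockout minus wild type, was 2.36 ± 0.75 (95% interval 0.75 to 3.97) and did not pass the test (adjusted p = 0.243). Without array a of the heme-treated knockout it was 2.80 with an adjusted p of 0.022. Without all LPS-treated arrays lettered a it was 2.26 with an adjusted p of 0.0318. Compared directly under heme and LPS, the knockout was 2.55 ± 0.52 above wild type (adjusted p = 0.00868), with 1 overlap, array a of the knockout at 5.84 against array b of wild type at 5.91. Quantile normalization gave 1.52 (adjusted p = 0.109), and a spread from these groups alone an adjusted p of 0.186.

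Among the other genes, those closest to Adamts4 over the 18 arrays were Il12b and Edn1, with a root mean square difference of 0.93 and 1.11 log2 units. Il12b encodes the shared subunit of interleukin-12 and interleukin-23, and Edn1 the vasoconstrictor endothelin-1. In wild type Il12b averaged 8.42 ± 0.24 with LPS and 4.72 ± 2.28 with heme and LPS, while in the knockout it averaged 9.03 ± 0.35 and 8.71 ± 1.04 (SD). Likeness was measured on the same arrays that show the pattern of Adamts4.

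Mmp13, the collagenase whose gene lies at the head of the Mmp cluster described below, is shown with the bases before its start because it had the largest LPS rise among the members with a listed start site. The 150 bases before the annotated start of Mmp13 (chr9:7272364-7272513, GRCm38.p6, plus strand, RefSeq) are given with the matches to searched motifs in capitals, and the 150 bases before the start of Mmp14 (chr14:54431448-54431597, plus strand) for contrast.
Mmp13: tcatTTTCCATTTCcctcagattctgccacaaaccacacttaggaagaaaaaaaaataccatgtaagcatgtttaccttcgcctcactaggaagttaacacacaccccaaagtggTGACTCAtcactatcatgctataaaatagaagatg
Mmp14: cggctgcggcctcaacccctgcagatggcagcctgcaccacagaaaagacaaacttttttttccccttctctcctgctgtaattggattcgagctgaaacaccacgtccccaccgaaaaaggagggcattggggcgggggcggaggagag

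Of the 10 members 7 had a start site in the RefSeq table, all but Adamts4, Mmp9 and Mmp19. The 250 bases before the start were searched on both strands for AP-1 (TGANTCA), the NF-kB consensus, the antioxidant response element core (TGACNNNGC), the interferon-stimulated response element core and the STAT core (TTCNNNGAA). Mmp13 held an AP-1 match that ended 28 bases before the start and, on the opposite strand, an interferon-stimulated response element core. Timp2 held an antioxidant response element core on the other strand. The other 5 held none of these letters in this window. Over all 32851 windows of this length 6.75% held the AP-1 letters, 2.98% those of the interferon element, 10.2% those of the antioxidant element, 3.9% the NF-kB consensus and 7.02% the STAT core, and matches of different motifs may overlap. A match is a description of the sequence and not a measured binding site.

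Mmp13 was at -0.04, 0.00 and -0.03 with albumin. With LPS it was at 7.15, 5.81 and 6.38. On the heme and LPS arrays it was at 5.55, 2.83 and 3.17, below every LPS array, with array a the highest of both LPS-treated wild type groups. The rise under LPS was 88.7-fold (adjusted p = 4.55e-06), and heme and LPS lay 3.88 ± 0.64 above albumin (adjusted p = 0.000436). Against LPS alone heme left 16.5% of the level (-2.60 ± 0.64, 95% interval -3.97 to -1.22, adjusted p = 0.0123). This call was lost without array b (-2.09, adjusted p = 0.0621) or c (-2.25, adjusted p = 0.0578) of the heme group, without array a of the LPS group (-2.25, adjusted p = 0.0604), and with the spread of these groups alone (adjusted p = 0.193). Quantile normalization made it -1.53 (adjusted p = 0.0363).

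In the knockout Mmp13 was at 7.08, 6.26, 6.26 and 7.18 with LPS and at 5.75, 4.18, 4.98, 6.18 and 5.88 with heme and LPS. Every heme array lay below every LPS array. The difference was -1.30 ± 0.53 (adjusted p = 0.197). With the array letter added as a replicate block over all groups, it was -1.42 and passed the test (adjusted p = 0.0401). That block also spans the wild type groups, so it is not a pairing of the knockout groups alone. Array e of the heme group has no LPS array of its letter and adds nothing to that value. The heme effects of the genotypes differed by 1.29 ± 0.83 (95% interval -0.49 to 3.08, adjusted p = 0.847). Under heme and LPS the knockout was 1.54 ± 0.57 above wild type (adjusted p = 0.167), and 2.39 without array a of wild type (adjusted p = 0.0103).

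The genes nearest in pattern to Mmp13 were Ifit1 and Rsad2, with a root mean square difference of 0.58 and 0.69 log2 units over 18 arrays. Both belong to the antiviral genes induced by interferon. In wild type Ifit1 averaged 6.69 ± 0.52 with LPS and 3.30 ± 2.68 with heme and LPS, and in the knockout 6.45 ± 0.17 and 5.41 ± 1.02 (SD).

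On chromosome 9 Mmp13 is the first of 10 metalloproteinase genes that follow each other, in the order Mmp13, Mmp12, Mmp1b, Mmp3, Mmp1a, Mmp10, Mmp8, Mmp27, Mmp20 and Mmp7. All 10 were measured. Under LPS only Mmp13 passed the test among them. Its neighbours Mmp12 and Mmp1b gave 0.30 ± 0.19 (adjusted p = 0.282) and 0.55 ± 0.32 (adjusted p = 0.241). The stromelysins Mmp3 and Mmp10 gave 1.10 ± 0.91 (adjusted p = 0.427) and 0.58 ± 0.99 (adjusted p = 0.747). Heme and LPS against LPS in wild type also left Mmp13 as the single call in the cluster, and against albumin Mmp12 and Mmp1b rose too (by 0.67 and 1.08). The call of Mmp1b was lost without array b or c of albumin or of heme and LPS, and with the spread of these groups alone (adjusted p up to 0.0952).

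Mmp14, the membrane protease, was at 0.16, 1.04 and 0.63 with albumin. With LPS it was at 4.67, 4.77 and 3.50. With heme and LPS it was at 0.00 (listed at exactly 0), 1.16 and 2.53, below every LPS array and overlapping the albumin arrays. The rise under LPS was 13-fold (95% interval 1.27 to 6.13 log2 units, adjusted p = 0.0234). It missed the threshold when array a or c of albumin or array a or b of LPS was left out, with adjusted p from 0.0575 to 0.0723. The heme difference of -3.09 ± 1.13 did not pass the test (95% interval -5.52 to -0.66, adjusted p = 0.0937).

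In the knockout Mmp14 was at 4.01, 4.17, 3.32 and 6.12 with LPS and at 1.39, 2.06, 4.96, 5.86 and 5.81 with heme and LPS. Arrays a and b of the heme group lay below all LPS arrays, and arrays c, d and e lay within their range. The heme effect was -0.39 ± 0.93 (adjusted p = 0.949), and the difference between the genotypes' heme effects was 2.70 ± 1.47 (95% interval -0.45 to 5.84, adjusted p = 0.747). Under heme and LPS the knockout was 2.79 ± 1.01 above wild type (adjusted p = 0.155), and 3.44 without array a of the knockout (adjusted p = 0.0428). Nearest to Mmp14 were Fpr-rs6, a gene of the formyl peptide receptor family, and Mmp25, another membrane-anchored metalloproteinase, with root mean square differences of 0.97 and 1.03.

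Mmp19 moved the other way. It was at 0.21, -0.41 and -0.05 with albumin. With LPS it was at -1.01, -1.49 and -1.09. Heme before LPS gave 0.19, 0.88 and 0.38, above every LPS array and overlapping albumin. The LPS difference of -1.11 ± 0.45 did not pass the test (adjusted p = 0.0798), while the heme difference of 1.68 ± 0.45 did (3.2-fold, adjusted p = 0.0189). That call was lost without array b of the heme group (1.48, adjusted p = 0.0776), without array b of the LPS group (1.53, adjusted p = 0.0752), and without the arrays lettered a among those with LPS (1.92, adjusted p = 0.0645).

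In the knockout Mmp19 ran from -1.45 to 0.22 with LPS and from -0.90 to 0.65 with heme and LPS. The groups overlapped (0.45 ± 0.37, adjusted p = 0.655). The heme effects of the genotypes differed by -1.23 ± 0.58 (95% interval -2.47 to 0.01, adjusted p = 0.639).

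The macrophage elastase Mmp12 stood between 0.00 and 0.04 with albumin and at 0.66, 0.98 and 0.45 with heme and LPS in wild type. It rose by 0.67 ± 0.19 against albumin (1.59-fold, adjusted p = 0.0161), a call lost without array b of the heme group (0.53, adjusted p = 0.0753) or without the lettered-a arrays with LPS (0.69, adjusted p = 0.062). With zeros as missing, heme and LPS lay 1.03 above albumin (adjusted p = 0.0151). LPS alone gave 0.25, 0.11 and 0.62, all above the albumin arrays (0.30 ± 0.19, adjusted p = 0.282). Of its 2 probes 1 was listed at exactly 0 on 13 of 18 arrays and the other on 0, and they gave LPS differences of -0.06 and 0.65 in that order. The values given are the mean of both. In the knockout its values ran from 0.17 to 0.56 with LPS and from -0.05 to 0.71 with heme and LPS (0.00 ± 0.16, 95% interval -0.33 to 0.33).

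The gelatinase Mmp9 ran from -0.07 to 0.56 with albumin, from 0.02 to 0.73 with LPS and from -0.14 to 1.32 with heme and LPS in wild type, and these ranges overlapped. The LPS difference was 0.14 ± 0.69 (95% interval -1.34 to 1.63, adjusted p = 0.964). In the knockout it was at -0.40, 0.00 (listed at exactly 0), 0.94 and 1.14 with LPS and at 1.25, -0.06, 1.28, 2.94 and 3.09 with heme and LPS. The heme arrays d and e stood highest of all 18. The heme difference there was 1.28 ± 0.57 (95% interval 0.06 to 2.50, adjusted p = 0.256), and its 10 probes gave 0.44 to 1.90.

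The neutrophil collagenase Mmp8 had no group mean further than 0.14 from 0. Its wild type values ran from 0.10 to 0.21 with albumin, from -0.63 to 0.21 with LPS and from -1.11 to 0.63 with heme and LPS, and array a was the lowest of both LPS-treated groups. The LPS difference was -0.26 ± 0.39 (95% interval -1.10 to 0.58, adjusted p = 0.704) and the heme difference 0.07 ± 0.39 (95% interval -0.77 to 0.91, adjusted p = 1).

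Among the inhibitors Timp1 was at 0.95, 0.86 and 0.92 with albumin. With LPS it was at 4.24, 1.61 and 2.70 in wild type. The arrays with heme and LPS gave 1.53, 0.27 and -0.03. All LPS arrays lay above all albumin and all heme arrays, but the spread within the groups was wide. The LPS difference was 1.94 ± 1.07 (95% interval -0.34 to 4.23, adjusted p = 0.206) and the heme difference -2.26 ± 1.07 (95% interval -4.55 to 0.03, adjusted p = 0.222).

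In the knockout Timp1 was at 3.86, 1.37, 1.79 and 4.16 with LPS and at 4.85, 0.22, 0.65, 1.68 and 1.93 with heme and LPS. The groups overlapped (-0.92 ± 0.88, adjusted p = 0.717). Array a was the highest in 3 of the 4 LPS-treated groups of both genotypes, by 1.41, 2.09 and 3.73 log2 units over the mean of the other arrays, and the remaining group was the knockout with LPS. For Timp2, described next, array a was the lowest in the same 3 groups. Nearest in pattern to Timp1 were Hopx, an atypical homeodomain protein, and Cdyl2, a chromodomain protein, with root mean square differences of 0.63 and 0.72.

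**Figure D2:**
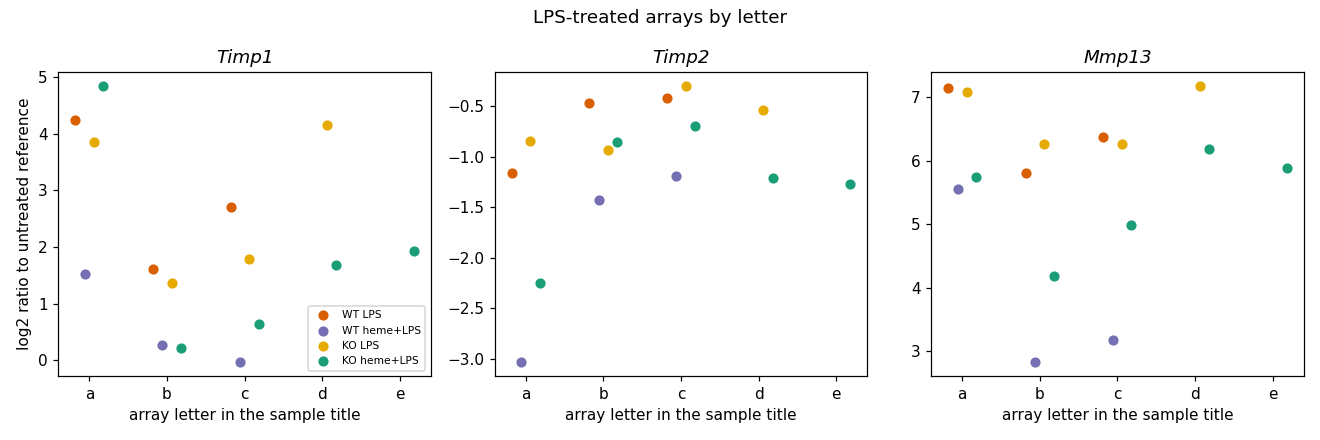
Log2 ratio to the untreated reference (y axis) of Timp1, Timp2 and Mmp13 on the 15 LPS-treated arrays, by the letter in the sample title (x axis) and coloured by group. Array a is at or near the top of each colour for Timp1 (4.85, 4.24, 3.86 and 1.53) and lowest for Timp2 in 3 of 4 groups.

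Timp2 was at -0.29, -0.46 and -0.32 with albumin. With LPS it was at -1.16, -0.47 and -0.42 in wild type. Heme before LPS gave -3.03, -1.43 and -1.19, below every albumin and every LPS array. It fell by 1.53 ± 0.44 against albumin (adjusted p = 0.0181). That call was lost without array a of the heme group (-0.95, adjusted p = 0.0793), without array a or c of albumin (adjusted p = 0.0515 and 0.0502), with the probe of largest variance (-1.77, adjusted p = 0.0664) and with the spread of these groups alone (adjusted p = 0.111). Without all LPS-treated arrays lettered a it was -0.95 and still called (adjusted p = 0.00597). Against LPS the difference was -1.20 ± 0.44 (adjusted p = 0.0933), and without the LPS-treated arrays lettered a it was -0.87 and passed the test (adjusted p = 0.0291).

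In the knockout Timp2 ran from -0.94 to -0.30 with LPS and was at -2.25, -0.86, -0.70, -1.21 and -1.27 with heme and LPS. The groups overlapped at arrays b and c (-0.60 ± 0.36, adjusted p = 0.471). The heme effects of the genotypes differed by 0.60 ± 0.57 (95% interval -0.62 to 1.82, adjusted p = 0.954).

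Timp3 was listed at exactly 0 on 10 of 18 arrays, so little can be read from it. Its values ran from -2.16 to 1.19, and the LPS and heme differences in wild type were -0.45 ± 0.51 (adjusted p = 0.585) and 0.70 ± 0.51 (adjusted p = 0.5).

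Counted together, LPS raised 3 of the 10 members and lowered 0, and heme and LPS against LPS in wild type raised 1 and lowered 2. Heme and LPS against albumin raised 3 and lowered 1, against 27.3% of all genes. In the knockout heme called 0 members by limma, 2 of them (Mmp9 and Mmp13) at an unadjusted p under 0.05, as were 17.3% of all genes. The difference between heme effects called 0, against 0.947% of all genes called, with Adamts4 alone at an unadjusted p under 0.05, as were 7.91% of all genes. Knockout against wild type called 0 under LPS, where no member had an unadjusted p under 0.05 (2.48% of all genes had one) and 0.00445% of all genes (1 gene) was called, and 1 under heme and LPS. With so few members these counts do not set them apart from the other genes.

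With no test, the median absolute difference of the members was 0.78 for LPS and 1.44 for heme in wild type, beside 0.40 and 0.25 over all genes, and it was 0.53 beside 0.19 for heme in the knockout. For knockout against wild type under LPS it was 0.12 for the members and 0.13 for all genes. The 95% intervals of the latter comparison ran from -0.97 to 1.35 for Adamts4 and from -2.18 to 2.36 for Mmp14, so changes of several fold are within them. The comparisons of LPS with albumin and of heme with LPS share the wild type LPS arrays. A high LPS array therefore raises the first difference and lowers the second. The members were chosen with earlier results of these data known. Of all 22485 genes 5639 were listed at exactly 0 on over 9 arrays. The medians therefore do not set the members apart from the other genes.

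**Figure D3:**
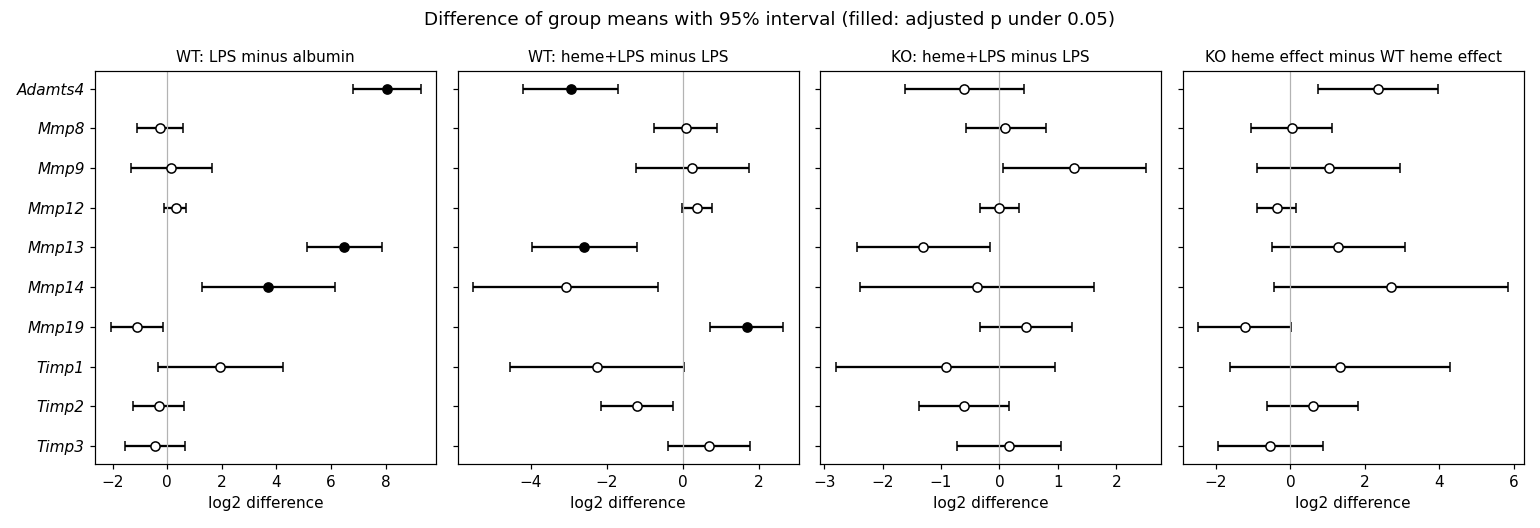
Log2 differences between group means (x axis, own scale in each panel) for the 10 genes (y axis) with 95% intervals, in 4 comparisons. Filled points passed an adjusted p of 0.05: Adamts4, Mmp13 and Mmp14 for LPS, Adamts4, Mmp13 and Mmp19 for heme in wild type, and none in the 2 panels with the knockout.

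The order of group means was the same for Adamts4, Mmp13 and Mmp14: knockout with LPS, wild type with LPS, knockout with heme and LPS, wild type with heme and LPS, albumin. Neighbours in that order overlapped in their arrays, except for the last pair in Adamts4 and Mmp13. Timp1 had the order wild type with LPS, knockout with LPS, knockout with heme and LPS, albumin, wild type with heme and LPS, and all neighbours overlapped.

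As differences within an array, Mmp13 minus Timp1 averaged -0.93 ± 0.07 with albumin, 3.60 ± 0.65 with LPS and 3.26 ± 0.73 with heme and LPS in wild type (SD, n = 3 each), so LPS and heme arrays overlapped. Mmp14 minus Timp2 averaged 0.97 ± 0.53, 5.00 ± 0.98 and 3.11 ± 0.57 in the same order. Mmp9 minus Timp1 went the other way under LPS, at -0.65 ± 0.36 with albumin, -2.45 ± 0.98 with LPS and 0.06 ± 1.13 with heme and LPS, and its LPS arrays lay below all others of wild type. Adamts4 minus Timp3 averaged 0.24 ± 0.66, 8.72 ± 1.23 and 5.06 ± 1.06, with Timp3 mostly listed at 0. In the knockout the LPS and the heme and LPS arrays overlapped in all 4 differences. There Mmp13 minus Timp1 averaged 3.90 ± 0.92 with LPS (n = 4) and 3.52 ± 1.49 with heme and LPS (n = 5), Mmp14 minus Timp2 averaged 5.06 ± 1.25 and 5.27 ± 1.93, Mmp9 minus Timp1 averaged -2.37 ± 1.56 and -0.17 ± 2.02, and Adamts4 minus Timp3 averaged 8.04 ± 0.81 and 7.28 ± 1.08. These are differences of ratios to untreated cells and not of amounts, and none was tested.

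Outside the members, 16 of 17 further metalloproteinases were measured. Under LPS Mmp25 rose (4.20 ± 0.86, adjusted p = 0.00183), while Mmp11 fell by 1.19 and Mmp24 fell by 1.08. Leaving out any array of albumin or array a or b of LPS ended the call of Mmp11 (adjusted p up to 0.111), its probe of largest variance alone gave -1.94, and the Mmp24 difference was -1.99 with quantile normalization and -0.96, no longer called, with zeros as missing (adjusted p = 0.0658). With heme and LPS against LPS Mmp25 alone was called and fell by 4.22 ± 0.86 (adjusted p = 0.00343). Its wild type means were 0.51 ± 1.32 with albumin, 4.72 ± 0.24 with LPS and 0.50 ± 0.86 with heme and LPS (SD), where 2 of 3 heme arrays were listed at exactly 0. In the knockout it averaged 4.97 ± 0.53 and 3.55 ± 1.55, and under heme and LPS it was 3.05 above wild type (adjusted p = 0.0317), or 2.29 with the replicate block (adjusted p = 0.0644). Leaving out array a or c of wild type or c, d or e of the knockout also ended that call, with values from 2.52 to 3.12.

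Among 26 measured ADAM and ADAMTS proteases LPS raised 0 and lowered Adam10 and Adam15 (by 0.68 and 0.66). The shedding protease Adam10 was 0.54 higher with heme and LPS than with LPS in wild type (adjusted p = 0.0292, lost whichever single array of these groups was left out), and 0.55 lower in the knockout than in wild type under heme and LPS (adjusted p = 0.0346). The knockout call was lost when any 1 array of wild type, or array a, c, d or e of the knockout, was left out (adjusted p up to 0.158 over all alternatives). Against albumin heme and LPS raised Adam17 and Adamdec1 and lowered Adam15, and of these Adam15 alone kept its call with any single array left out. No ADAMTS gene other than Adamts4 was called in any of the 7 comparisons.

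Of 10 activators and partners of the proteases LPS called 6, beside 28.6% of all genes. The list was chosen with earlier results of these data known, so the count does not set it apart. Furin, the proprotein convertase that removes the prodomain of Mmp14 and of ADAMTS proteases, rose by 1.40 (adjusted p = 0.000382). The urokinase receptor Plaur rose by 1.42, Lcn2, a lipocalin that binds Mmp9, by 2.85, and Cd44, a hyaluronan receptor that can anchor Mmp9, by 1.31. Urokinase itself (Plau) fell by 2.51, and the scavenger receptor Lrp1, which clears proteases from the cell surface, by 0.69. The calls of Cd44 and Plau were lost without array a of LPS (adjusted p = 0.0698 and 0.107), as they were without array a or b of albumin, and Cd44's also without array c of LPS and Plau's without array c of albumin.

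Furin alone among these was called for heme. In wild type it averaged 1.18 ± 0.07 with LPS and -0.16 ± 0.55 with heme and LPS, close to the -0.21 ± 0.02 with albumin (SD), a fall of 1.34 (adjusted p = 0.00108, or 0.0794 with the spread of these groups alone). In the knockout it fell by 0.84, from 1.72 ± 0.33 to 0.88 ± 0.21 (adjusted p = 0.0162), a call that the replicate block ended (adjusted p = 0.0615), as did leaving out array a or d of the LPS group (adjusted p = 0.0637 and 0.0526) and quantile normalization (0.0672). Under heme and LPS the knockout was 1.04 above wild type (adjusted p = 0.00788, or 0.0501 with the replicate block and 0.134 with the spread of these groups alone). The difference of the heme effects in Furin was not called.

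**Figure D4:**
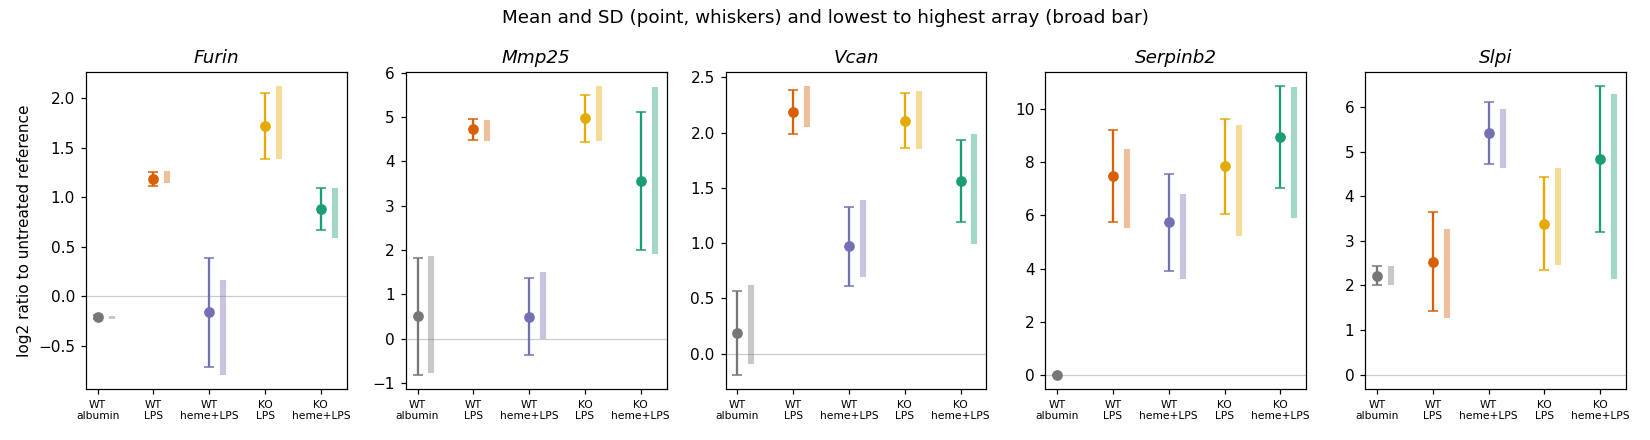
Group means and SD (points and whiskers) and the range from the lowest to the highest array (broad bars) of the log2 ratio for Furin, Mmp25, Vcan, Serpinb2 and Slpi, with the y axis scaled for each gene. Furin, Mmp25 and Vcan are higher with LPS than with albumin in WT, and lower with heme and LPS than with LPS (Furin 1.18 and -0.16).

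Of 8 measured inhibitors outside the members, Timp4 among them, LPS raised Serpinb2, an inhibitor of urokinase. Its 3 albumin arrays were all listed at exactly 0, and it ran from 5.51 to 8.52 with LPS. Slpi, an inhibitor of leukocyte elastase, was 2.89 higher with heme and LPS than with LPS in wild type (adjusted p = 0.0473), a call lost whichever single array of these groups was left out. Its wild type means were 2.53 ± 1.11 and 5.42 ± 0.70 (SD). Against albumin heme and LPS raised Serpinb2, Slpi and Cstb. The Slpi difference turned from 3.20 to -0.29 under quantile normalization (adjusted p = 0.82) and was not called without array a of albumin, a or c of heme and LPS, or the lettered-a arrays with LPS (adjusted p from 0.0511 to 0.0914). The call of Cstb was lost without array b or c of albumin or c of heme and LPS (adjusted p up to 0.0878).

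Among 10 cathepsins and elastase LPS raised Ctsc, Ctss and Ctsz (by 1.89, 0.65 and 0.72) and lowered Elane by 0.74. For heme the calls in each genotype were Ctss, Ctsl and Elane. Ctss, an elastolytic cathepsin active at neutral pH, fell by 0.93 in wild type and 0.75 in the knockout. Ctsl fell by 0.83 and 0.56, and Elane rose by 1.08 and 0.98. In wild type the heme calls of Ctsl and Elane were lost without the lettered-a arrays with LPS (adjusted p = 0.063 and 0.0754), and in the knockout that of Ctsl without array a, b or c of LPS (adjusted p from 0.0643 to 0.074) or d of heme (0.0503). The spread of the compared groups alone ended the wild type heme call of Ctss and the knockout heme call of Elane (adjusted p = 0.087 and 0.0837). The LPS call of Elane was lost without array a or b of LPS or any array of albumin.

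Of 14 measured matrix substrates LPS raised Vcan, which encodes the Adamts4 substrate versican, by 2.00 (adjusted p = 4.48e-05), and Col4a2, a basement membrane collagen, by 1.72. With heme and LPS against LPS in wild type Vcan fell by 1.22 (adjusted p = 0.00457), though at -0.96 it was not called once the lettered-a arrays with LPS were left out (adjusted p = 0.0989). Its probe of largest variance alone gave 4.83 for LPS and -2.59 for heme (adjusted p = 1.92e-05 and 0.00591). Heme and LPS left Vcan, Col4a2 and Tnc above albumin. Single arrays left out ended both calls of Col4a2 and that of Vcan against albumin (adjusted p up to 0.148). In the knockout Vcan averaged 2.11 ± 0.25 with LPS and 1.56 ± 0.37 with heme and LPS (SD), which was not called.

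The neutrophil marker S100a8 rose with heme and LPS against LPS in wild type (2.05, adjusted p = 0.0102). That call was lost without array b of heme or a of LPS (0.0509 and 0.0549) and with the spread of these groups alone. Under heme and LPS S100a8 was 1.95 lower in the knockout than in wild type (adjusted p = 0.017, or 0.0592 with the replicate block). The genotype call was also lost without array b or c of wild type and with the spread of these groups alone (adjusted p up to 0.122). The defining marker Ly6g averaged 0.21 to 0.42 in the 5 groups and Mpo -0.31 to 0.53. Camp averaged 0.21 with albumin, 1.47 with LPS and 2.17 with heme and LPS in wild type. S100a9 averaged 0.55, 0.95 and 1.18 in the same order. Of the 12 neutrophil markers Ngp rose under LPS and S100a8 with heme, and the part of such cells in the values of Mmp8, Mmp9, Elane and Slpi was not tested. Of 7 osteoclast markers, whose mean log2 ratio was -0.10 to 0.14 on the albumin arrays, -0.14 to -0.01 with LPS and -0.86 to -0.15 with heme and LPS in wild type, Atp6v0d2 fell with heme and LPS against LPS and Dcstamp and Nfatc1 fell under LPS. Of 9 stromal markers, with means of 0.17 to 0.34, -0.47 to 0.85 and 0.18 to 0.39 in the same groups and 0.05 to 1.39 in the knockout, Dcn and Pdgfrb rose under LPS, and with heme and LPS against LPS Acta2 rose and Dcn fell. Col1a1, Dcn and Thy1 were listed at exactly 0 on every albumin array. All of these calls but that of Acta2 were lost with some single array left out. Of 6 dendritic cell markers Zbtb46 rose under LPS, a call lost without array a or b of either group. The part of such cells in the values of Mmp13, Mmp14 and the TIMPs was not tested.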

How the data were processed

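The authors' deposited table holds log10 ratios of Cy5 over Cy3, from Agilent Feature Extraction 10.5.1.1 per the submitters' processing notes. The log base was inferred from the values. The sources used here do not give how background and dyes were corrected or from which genotype the reference came. Symbols covered 33026 of 44397 features. Values were turned into log2 units, and probes of a gene were averaged. A single limma 3.58.1 model (R 4.3.3; lmFit, eBayes) over the 5 groups and 18 arrays gave the group means, with two-sided tests and Benjamini-Hochberg adjustment over all 22485 genes, and called at an adjusted p under 0.05. The fit was tested on simulated data. The number of arrays limits the precision.

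Named are all 10 members in each comparison, called genes of the fixed lists (up to 3 per list by size, and all where a count is 5 or fewer; Cd44, Lrp1 and Plaur, beyond the 3, were named after their values were seen), and for members whose group means span at least 2 log2 units the 2 genes nearest by root mean square difference. The members and lists were chosen with earlier results of these data known.

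Array letters paired the samples in 3 comparisons, where every same-letter correlation of deviations from the group means exceeded 0.1: knockout against wild type under LPS (0.20 to 0.58) and under heme and LPS (0.23 to 0.53), and heme in the knockout (0.22 to 0.59). The pairing comes from the data, not the labels. Alternatives were quantile normalization, zeros as missing, genes at 0 on over 9 arrays left out, the probe of largest variance, a replicate block, a trend and robust prior, groups compared alone, and arrays left out. The replicate block was a letter effect shared by all groups, and not a separate pairing within each comparison. Promoter bases are RefSeq's (GRCm38.p6). Figures used matplotlib 3.10.9 and pandas 2.3.3.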

Additional observations from a re-analysis of the deposited data

Results flagged for a closer look

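Values of single arrays that stood far from the rest of their group (Dixon's test at the 95% level) were found in 3 of the 20 combinations of a member and a knockout group. Chance gives about 1 in 20 for continuous values, a rate that does not hold for Timp3, whose arrays include values listed at exactly 0. Adamts4 with heme and LPS in the knockout was 5.84 on array a, with the next array at 7.81. Timp3 in the same group was 1.19 on array e, with the next at 0.24, and with LPS in the knockout 0.62 on array c, where the other arrays were listed at exactly 0, so that the test passes whatever the value of array c. The groups of 3 arrays in wild type were not examined.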

How the results depend on the processing

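Of 11 called member results 4 kept their call under every alternative run (Adamts4 and Mmp13 for LPS and for heme and LPS, each against albumin) and 7 lost it under some. Of 59 that were not called 7 gained a call under some and 23 changed sign under some, while no called member changed sign. Of 83 called results of list and marker genes 29 kept their call throughout. Slpi with heme and LPS against albumin turned from 3.20 to -0.29 under quantile normalization. That step stretches the narrower albumin arrays, and whether this made the change was not tested.

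For heme in wild type 3 members were called, 5 with the replicate block, 1 with groups compared alone and 1 to 3 with an array left out. For heme in the knockout 0 became 1 with the block. For the difference of heme effects 0 became 1 without the arrays lettered a, and 0 to 1 with an array left out. For the genotypes under heme and LPS 1 became 0 with quantile normalization and with groups compared alone, 2 without the arrays lettered a, and 1 to 2 with an array left out (2 without array a of either group). The replicate block changed no other call of a member in the 3 paired comparisons. Between LPS and heme and LPS in wild type the same-letter correlation was 0.48 for a and 0.01 for b and c. Between albumin and LPS it was -0.01 to 0.02. In wild type the block added Mmp19 for LPS and Mmp14 and Timp2 for heme.

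Counts over all genes with groups compared alone were 1545 instead of 3303 for heme in wild type, 752 instead of 1523 in the knockout, 116 instead of 213 for the difference, 0 instead of 1 for the genotypes under LPS and 317 instead of 1189 under heme and LPS. With an array left out they ran from 951 to 1637 (heme in the knockout), 135 to 323 (difference) and 1 to 3 (genotypes under LPS). The genotypes under LPS gave 6 genes without the arrays lettered a and 0 with the block. For LPS against albumin, groups compared alone called more genes, 3132 raised and 4398 lowered instead of 2768 and 3665. The reasons for these shifts were not tested. Exact zeros limit what can be read from Timp3.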
